A study of Manihot esculenta with 4 samples.

Results

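In cassava leaves, 179 genes already transcribed in control plants of at least 1 cultivar stood at higher levels under drought in both cultivars measured. Cassava, Manihot esculenta, is a tropical root crop, and its cultivars KU50 and Xinxuan048 were each sampled once under normal conditions and once under drought stress. The groups were therefore KU50 control, KU50 drought, Xinxuan048 control and Xinxuan048 drought, with 1 RNA sequencing library of leaf each. The labels gave neither the length nor the severity of the drought, nor the age or number of the plants behind a library. The series asks how gene regulation in the leaf responds to drought.

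The 179 genes were chosen by their measured values, from 27146 genes listed in at least 1 library. A gene was eligible if its locus lay on a numbered chromosome and spanned at least 500 bases, and if its mean over the 4 libraries was at least 1 and below 300 FPKM. FPKM are fragment numbers divided by transcript length and by sequencing depth. Of the 18602 eligible genes, those taken had at least 1 FPKM in at least 1 control library and a log2 ratio of drought to control of at least 1.5 in KU50 and in Xinxuan048. Ratios were taken on FPKM + 1, which understates the change of low genes. All 179 passed the lower limit on the mean, since the rule requires it. A ratio of at least 1.5 was reached by 3.56% of eligible genes in KU50, by 2.96% in Xinxuan048 and by 1.25% in both. Because these ratios chose the genes, they are given below as a description and carry no test.

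Leaves that lose water close their stomata, and the hormone abscisic acid drives much of the accompanying change in transcription. Genes known to respond in other plants include those for protective hydrophilic proteins, for enzymes of osmolyte and sugar metabolism, and for regulators of abscisic acid signalling. The cassava genes here carry only MANES locus tags, none of which is paired with a gene name or function in the tables used here: 0 of the 27146 tags matched the 34312 RefSeq cassava genes. No gene below is therefore given a role, and markers of other cell types in the leaf were not examined. In RNA of whole leaf, a change in the number of cells of a type and a change in RNA per cell cannot be told apart.

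The libraries listed between 24405 and 25336 genes, with FPKM totals from 611226 to 636034. The number of fragments behind a value is unknown, so no counting interval is given. Across all eligible genes the median log2 ratio of drought to control was 0.31 in KU50 and 0.37 in Xinxuan048. With TMM scaling, which centres most genes, these medians were 0.038 and 0.019. The 179 genes stood above that general level, as the rule requires: their median ratio was 2.13 in KU50 and 1.94 in Xinxuan048, which is 1.82 and 1.57 above the median of eligible genes. Under TMM the same distances were 1.80 and 1.60. They could hardly have differed, since TMM multiplies all genes of a library by the same factor.

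In level, most of the 179 genes lay in the lower part of the leaf transcriptome in control libraries and in its upper part in drought libraries. Their median level in KU50 leaves was 4.76 FPKM without and 29.0 with drought. In Xinxuan048 leaves the medians were 4.29 and 25.3 FPKM. The median of all eligible genes moved much less, from 9.32 to 11.9 FPKM for KU50 leaves and from 8.13 to 11.0 FPKM for Xinxuan048 leaves. The typical gene of the set thus lay below the typical eligible gene in both control libraries and above it in both drought libraries.

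**Figure D1:**
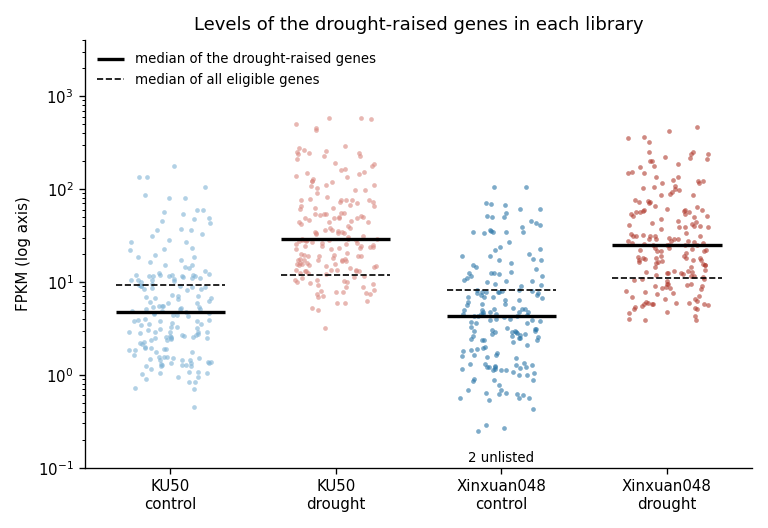
FPKM of the 179 genes on a log axis, 1 point per gene and library, with solid bars at their median and dashed bars at the median of all 18602 eligible genes. The solid bars lie at 4.76 and 4.29 FPKM in the control libraries, below the dashed bars, and at 29.0 and 25.3 in the drought libraries, above them; 2 genes were unlisted in Xinxuan048 control.

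Ranks, which a common scaling factor does not move, rose as well. A rise in rank and in share of the total follows largely from the rule, so these values are a description. Among eligible genes, the median percentile of the set went from 29.8 in control to 79.6 under drought in KU50, and from 32.0 to 77.2 in Xinxuan048. The top 10% of eligible genes held 13 of the 179 in KU50 control leaves and 60 in drought leaves, against 12 and 57 for Xinxuan048. Together the 179 genes took up 0.369% of the FPKM total of KU50 control and 2.08% of that of KU50 drought. Their share of the Xinxuan048 totals was 0.315% without and 1.64% with drought.

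Without a pseudocount, the KU50 folds ran from 2.86 to 111 with a median of 5.32. In Xinxuan048 the 177 genes with a control value had folds from 2.87 to 180, with a median of 4.91. The highest folds rest on low control levels: 0.700 FPKM for MANES_05G012000 in KU50 and 0.427 for MANES_11G164800 in Xinxuan048. Most genes sat near the limit of the rule. The smaller of the log2 ratios was under 2 in 109 genes and at least 2 in 70; it was at least 3 in 18 genes and at least 4 in 4. MANES_09G048200 and MANES_14G016400 were just inside the limit, with smaller ratios of 1.5003 and 1.501. MANES_03G185000 and MANES_04G020900 lay just outside it, with KU50 ratios of 1.496 and 1.492.

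Groups at the edges of the rule show what it left out. A ratio of at least 1.5 in both cultivars, at a mean of 1 FPKM or more, was reached by 260 genes, of which 6 lay on unplaced sequences and 18 spanned under 500 bases. A further 3 had a mean of 300 FPKM or more, and 54 were under 1 FPKM in both control libraries. The remaining 179 are the genes described here.

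The genes with the highest mean ratio started from low control levels. MANES_03G208800, on chromosome 3 from 28896615 to 28898137, held 1.25 FPKM in control and 102 under drought in KU50 leaves. Its Xinxuan048 levels were 0.567 FPKM in control and 64.9 under drought. Its log2 ratios were 5.52 and 5.39, and both drought values lay far above both control values. MANES_11G164800, on chromosome 11 from 27217166 to 27218398, held 2.62 FPKM in control and 70.7 under drought in KU50 leaves. Its Xinxuan048 levels were 0.427 and 77.0 FPKM. The drought levels of this gene were close to each other, whereas its control levels were not, so that its ratio was 4.31 in KU50 and 5.77 in Xinxuan048. MANES_01G274900 and MANES_11G030400, named after their values were seen, were the other two with a ratio of at least 4 in both cultivars. Below, paired values of a cultivar are given with control first and drought second. MANES_11G030400 held 8.11 and 184 FPKM in KU50 leaves, 4.44 and 118 in Xinxuan048 leaves. MANES_01G274900 held 1.93 and 48.4 FPKM in KU50 leaves, 1.30 and 73.1 in Xinxuan048 leaves.

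**Figure D2:**
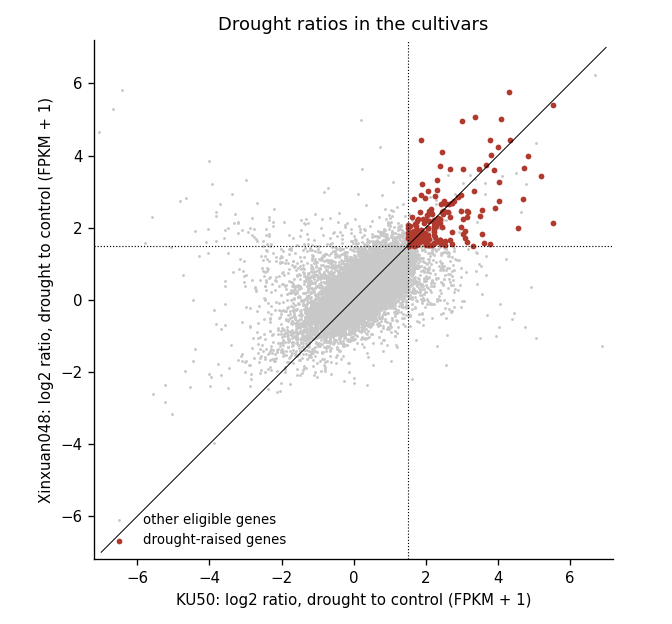
Log2 ratio of drought to control (FPKM + 1) in KU50 on the horizontal axis and in Xinxuan048 on the vertical axis, with the 179 genes in red, other eligible genes in grey, the limit of 1.5 dotted and equality as a solid line. Most red points lie close to the limit, with medians of 2.13 and 1.94; grey points beyond both limits are the 54 genes under 1 FPKM in both control libraries.

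Other genes of the set were already abundant in control leaves. MANES_09G171400, on chromosome 9 from 28158459 to 28160500, and MANES_05G203200, on chromosome 5 from 27716139 to 27725260, had the highest means over the control libraries. MANES_05G203200 held 134 and 436 FPKM in KU50 leaves, 104 and 358 in Xinxuan048 leaves. Its log2 ratios were 1.70 and 1.77, so this abundant gene sat near the limit in both cultivars. MANES_09G171400 held 179 and 577 FPKM in KU50 leaves, 33.9 and 240 in Xinxuan048 leaves. Each Xinxuan048 level of this gene was less than the KU50 level under the same condition.

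Under drought the highest mean levels were those of MANES_09G024300 and MANES_07G113900. MANES_07G113900, on chromosome 7 from 24219567 to 24223633, held 104 FPKM in each control library; its drought levels were 496 FPKM for KU50 and 461 for Xinxuan048. The cultivars were nearly alike in this gene under both conditions, with log2 differences, Xinxuan048 minus KU50, of -0.0039 in control and -0.11 under drought. MANES_09G024300 held 37.2 and 564 FPKM in KU50 leaves, 34.1 and 424 in Xinxuan048 leaves. The files give it the same range, chromosome 9 from 3591517 to 3598213, as MANES_09G024400. The latter held 1.04 and 8.73 FPKM in KU50 leaves, 0.287 and 8.51 in Xinxuan048 leaves, and whether fragments of the former were counted in it was not tested.

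At the low end of control expression stood MANES_01G049000 and MANES_09G024400. MANES_01G049000 held 1.06 and 5.29 FPKM in KU50 leaves; in Xinxuan048 leaves it was unlisted without drought and reached 3.96 FPKM with it. The set held 8 genes under 1 FPKM in KU50 control and 24 in Xinxuan048 control, 2 of them unlisted there. For these genes the ratio depends most on the pseudocount. The shares of eligible genes under 1 FPKM were not computed, so the counts of 8 and 24 have no background. Over all genes, Xinxuan048 control listed 24405 and KU50 control 25296.

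The share of eligible genes that met the rule differed with control level and with span. In the whole of them, 0.962% of eligible genes met the rule. Of the 3148 eligible genes with a control mean from 1 to below 3 FPKM, 62 did, which is 1.97%. Below a control mean of 1 FPKM it was 7 of 805, or 0.870%, where the rule admits only genes with at least 1 FPKM in a control library. Between 10 and 30 FPKM the share was 0.561%, with 31 of 5521 genes. Among the 26 genes with a control mean of 300 FPKM or more, 0 met the rule, and none could. With a mean below 300 FPKM over the 4 libraries, such genes cannot be higher under drought in both cultivars. Control level is part of the rule, so these shares describe what it selects.

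Span entered the rule only as a lower limit. The shortest of the 179 loci spanned 526 bases, the longest 16952 and the median 2556, against a median of 3750 for eligible genes. From 500 to below 1000 bases 1.77% of eligible genes met the rule, and from 1000 to below 2000 bases 1.63%. The share was 0.612% from 4000 to below 8000 bases and 0.367% from 8000 bases on. The shortest 2 loci were MANES_08G078600, with 526 bases, and MANES_13G151900, with 543. MANES_13G151900 held 23.2 and 81.6 FPKM in KU50 leaves, 17.8 and 70.4 in Xinxuan048 leaves, and its ratios of 1.77 and 1.93 were similar. MANES_08G078600 held 1.63 and 31.1 FPKM in KU50 leaves, 0.633 and 3.86 in Xinxuan048 leaves. Its ratios of 3.61 and 1.57 were far apart. At the other end, MANES_08G022400 spanned 16952 bases and MANES_18G070300 13737, with ratios from 1.57 to 1.89. Short loci also give less precise FPKM at a given depth, and the part of this in the shares was not tested.

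**Figure D3:**
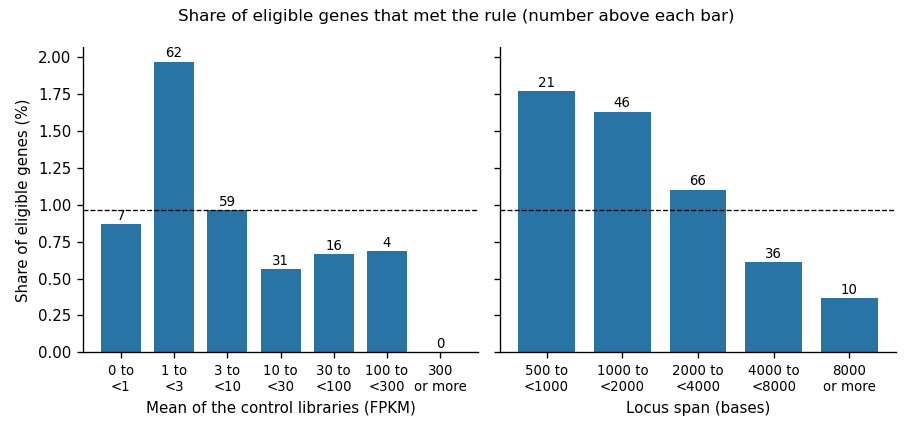
Share of eligible genes that met the rule, in percent, by mean of the control libraries in FPKM (left) and by locus span in bases (right), with the number of genes above each bar and the 0.962% of all eligible genes dashed. The share was highest, at 1.97%, for control means from 1 to below 3 FPKM, and went from 1.77% for the shortest spans to 0.367% for the longest.

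Levels of the 179 genes in the cultivars went together. Across the 179 genes, log2 levels in KU50 and Xinxuan048 had a Pearson correlation of 0.887 in control and 0.927 under drought. The same correlations over all eligible genes were 0.924 and 0.931. These are descriptions across genes, which are not independent replicates. The drought response differed by at most 0.5 log2 units between the cultivars in 119 genes, or 66.5%, beside 71.9% of eligible genes. It differed by less than 1 in 151, or 84.4%, beside 91.4%. Its difference, Xinxuan048 minus KU50, had a median of -0.053 and an SD of 0.76 over the 179 genes, and a median of 0.062 and an SD of 0.71 over eligible genes. It was below 0 in 104 of the 179, or 58.1%, whereas it was below 0 in 44.0% of eligible genes.

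Closely matched responses were found at different levels. MANES_09G170100 held 36.0 and 252 FPKM in KU50 leaves, 34.9 and 240 in Xinxuan048 leaves, with ratios of 2.77 and 2.75. MANES_01G249900 held 2.80 and 22.7 FPKM in KU50 leaves, 1.22 and 13.0 in Xinxuan048 leaves, with ratios of 2.64 and 2.66. The former gene was thus alike in level and in response, whereas the latter was lower in Xinxuan048 under both conditions and had nearly the same ratio. By the rule for named genes, these were the 2 with the smallest difference of ratios among genes with a mean ratio of at least 2.5.

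A response at least 1 log2 unit greater in KU50 was seen in 19 genes, where 3.08% of eligible genes did so. MANES_05G012000, on chromosome 5 from 822142 to 824202, held 0.700 and 77.9 FPKM in KU50 leaves. Its Xinxuan048 levels were 6.94 and 33.6 FPKM. Its ratios were 5.54 in KU50 and 2.13 in Xinxuan048. MANES_02G046700 followed, at 1.36 and 54.9 FPKM in KU50 leaves, 7.62 and 33.1 in Xinxuan048 leaves. In both genes the KU50 control value was the lowest of the 4 and the KU50 drought value the highest.

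A response at least 1 log2 unit greater in Xinxuan048 was seen in 9 genes, against 5.52% of eligible genes. MANES_02G212800, on chromosome 2 from 23746729 to 23751944, held 8.81 and 35.0 FPKM in KU50 leaves, 3.03 and 86.0 in Xinxuan048 leaves. Its ratios were 1.87 and 4.43. MANES_17G119200 held 2.01 and 23.4 FPKM in KU50 leaves, 0.269 and 38.6 in Xinxuan048 leaves. In both, Xinxuan048 held the lowest control and the highest drought value. None of these differences has a test: 1 library per condition stands behind each response, and both responses were part of the rule.

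The rule set no limit on the difference between cultivars within a condition, although it used the same values. In control leaves 20 of the 179 genes stood at least 2-fold below KU50 in Xinxuan048 and 10 at least 2-fold above it, where 6.45% and 2.11% of eligible genes did so. With TMM scaling the numbers were 17 lower and 13 higher. The shares of eligible genes past 2-fold were not computed under TMM, so these TMM counts have no background. The median control difference of eligible genes was 0.026 under TMM and -0.13 without it. Under drought 17 stood at least 2-fold below KU50 and 2 at least 2-fold above it, where 3.78% and 2.53% of eligible genes did so. In 2 genes, MANES_05G012000 and MANES_02G212800, such differences ran in opposite directions under the conditions, beside 0.704% of eligible genes. Taken by sign alone, 114 of the 179 were lower in Xinxuan048 than in KU50 control leaves, or 63.7%, beside 64.5% of eligible genes; under TMM it was 103, beside 47.4%. Among drought leaves 131 of the 179 were lower in Xinxuan048, or 73.2%, beside 58.7%; under TMM it was 115, beside 50.3%. The median log2 difference was -0.22 in control and -0.27 under drought, against -0.13 and -0.078 for eligible genes. With 1 library per group, a difference between the cultivars and a difference between their libraries cannot be told apart.

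MANES_01G064200, on chromosome 1 from 18648375 to 18649334, had the lowest ratio of Xinxuan048 to KU50 under drought. KU50 leaves held 22.8 and 138 FPKM of it, Xinxuan048 leaves 4.75 and 15.4. The log2 difference between cultivars was -2.05 in control and -3.08 under drought. This was the only gene of the 179 whose groups overlapped, its Xinxuan048 drought value lying below its KU50 control value; in the other 178 both drought values exceeded both control values, as they did in 52.2% of eligible genes, and the rule nearly requires it. MANES_09G171400 had the lowest ratio in control, at -2.37, and -1.26 under drought. MANES_08G078600, with 31.1 FPKM in KU50 drought and 3.86 in Xinxuan048 drought, had -0.69 in control and -2.72 under drought.

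At the other end, MANES_08G075100, on chromosome 8 from 13161461 to 13165349, was higher in Xinxuan048 under both conditions. KU50 leaves held 0.956 and 13.5 FPKM of it, Xinxuan048 leaves 3.27 and 29.6. Its log2 differences were 1.12 in control and 1.08 under drought. In control leaves MANES_05G012000, at 2.22, and MANES_14G173500, at 2.02, had the highest ratios of Xinxuan048 to KU50. MANES_14G173500 held 8.83 FPKM in KU50 and 38.8 in Xinxuan048 as controls, and its drought levels of 135 and 116 FPKM were closer. Of the genes at least 2-fold apart in the same direction under both conditions, 8 were higher in KU50 and 1 in Xinxuan048. The shares of eligible genes that did so were not computed, so these counts have no background. Taken by condition, 6.45% of eligible genes in control and 3.78% under drought were at least 2-fold higher in KU50. In Xinxuan048 it was 2.11% and 2.53%. The 8 include MANES_01G064200 and MANES_09G171400, and the 1 is MANES_08G075100.

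**Figure D4:**
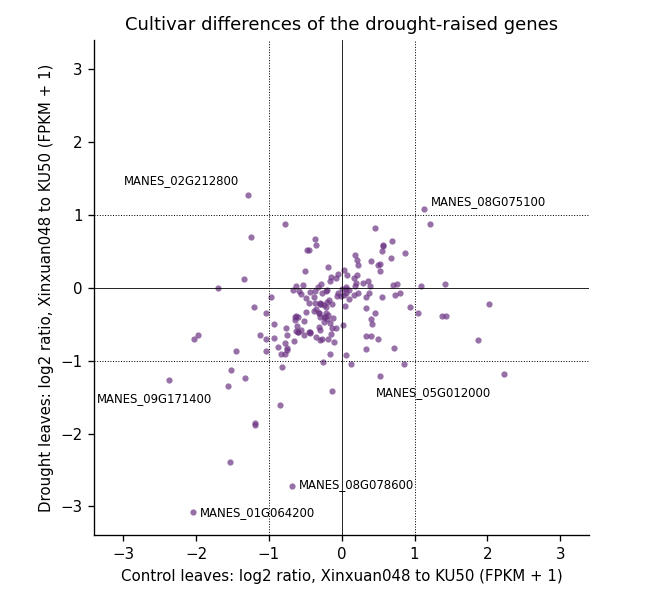
Log2 ratio of Xinxuan048 to KU50 (FPKM + 1) in control leaves on the horizontal axis and in drought leaves on the vertical axis, 1 point per gene of the 179, with 2-fold differences dotted. The lower left corner holds 8 genes at least 2-fold higher in KU50 under both conditions, the upper right 1 gene higher in Xinxuan048. The shares of eligible genes in these corners were not computed. Below 0 on the vertical axis lie 131 points, or 73.2%, beside 58.7% of eligible genes.

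A cultivar effect shared by both conditions was tested by an additive limma fit of cultivar and drought over the 4 libraries, on all 19743 genes whose mean was 1 FPKM or more. By limma at an adjusted p of 0.05, 0 of the 179 genes and 0 of all genes passed (0.0% called). The smallest limma adjusted p was 0.189 among the 179 and 0.0955 among all genes. At an unadjusted p of 0.05, 51 of the 179 passed, which is 28.5%, beside 14.6% of all genes. Of the 51, 42 were higher in KU50, where 10.1% of all genes passed in that direction, and 9 were higher in Xinxuan048, beside 4.49%. Under TMM 32 were higher in KU50 and 14 in Xinxuan048, with 6.50% and 7.09% of all genes. The rule used the same 4 values, and its limits on both ratios enter the error of this fit, so these counts are a description from which nothing is read about the 179 genes. That error is the difference between 2 single responses, pooled with genes of like level, and does not measure the spread between plants.

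MANES_01G114100, named after its values were seen, had the smallest p of the 179. KU50 leaves held 10.7 and 33.1 FPKM of it, Xinxuan048 leaves 2.95 and 12.4. The shared effect, Xinxuan048 minus KU50, was -1.46 ± 0.16 (SE, 4 libraries; limma adjusted p = 0.189). For MANES_01G064200 it was -2.56 ± 0.29 (SE; limma adjusted p = 0.196), and for MANES_08G075100 1.10 ± 0.16 (SE; limma adjusted p = 0.205). None of these effects passed the adjusted test.

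The genes were spread over all 18 chromosomes. Chromosome 1 held most, with 20 of its 1684 eligible genes. As a share of eligible genes chromosome 8 was highest, at 1.62% with 17 genes, followed by chromosome 5, at 1.46% with 18. Chromosome 4 was lowest, at 0.207%, with 2 of 966 genes. These shares are descriptions of small counts and were not tested.

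**Figure D5:**
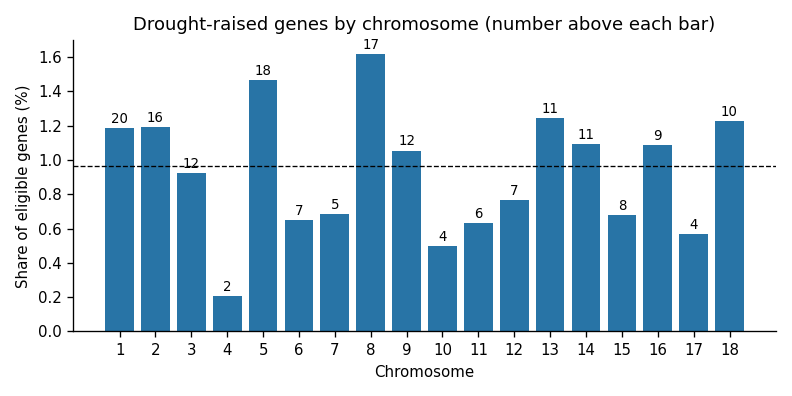
Share of the eligible genes of each chromosome that met the rule, in percent, with the number of genes above each bar and the 0.962% of all eligible genes dashed. Chromosome 8 had the highest share, at 1.62%, and chromosome 4 the lowest, at 0.207%.

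Direct neighbours in the order of position formed 3 pairs, and no longer run occurred. The number of pairs in other sets of genes was not computed, so this count has no background. MANES_05G089700, on chromosome 5 from 7331724 to 7332667, and MANES_05G089800, from 7335816 to 7336712, were alike in their values. The former held 8.38 and 152 FPKM in KU50 leaves, 7.57 and 56.6 in Xinxuan048 leaves. The latter held 5.92 and 179 FPKM in KU50 leaves, 11.6 and 86.6 in Xinxuan048 leaves. Both had the greater ratio in KU50, with 4.03 and 4.70 there and 2.75 and 2.80 in Xinxuan048. Whether the sequences of these neighbours are similar enough to share fragments was not tested.

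MANES_08G022400 and MANES_08G022500 are the second pair, on chromosome 8 from 2066904 to 2083856 and from 2084504 to 2095963. MANES_08G022400 held 11.3 and 44.6 FPKM in KU50 leaves, 8.05 and 29.1 in Xinxuan048 leaves. MANES_08G022500 held 3.55 and 17.9 FPKM in KU50 leaves, 3.61 and 12.3 in Xinxuan048 leaves. These long loci had ratios between 1.53 and 2.06. The third pair is MANES_09G024300 and MANES_09G024400, which share 1 range in the files. In all, 5 of the 179 genes shared their range with another listed gene, and how fragments were divided between such genes was not tested. The share of eligible genes with a shared range was not computed, so the count of 5 has no background.

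Genes next to the 179 were followed for their own ratios. Of 245 eligible direct neighbours outside the set, 18 had a ratio of at least 1 in both cultivars, which is 7.35%, beside 3.64% of all eligible genes outside it. Their median ratio was 0.43 in KU50 and 0.45 in Xinxuan048, beside 0.31 and 0.37. These differences were not tested, and the share of 7.35% rests on 18 genes. Neighbours that share a range with a gene of the set were not left out.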

How the data were processed

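The authors deposited 1 FPKM value per gene and library, per the file headers. TopHat2 2.0.12 and Cufflinks are named, without role or order, per the submitters' processing notes; the Cufflinks version, genome build, annotation and filters are not given in the sources used here. Positions are as the files give them; whether the start counts from 0 or 1 is not stated. A gene absent from a library's file was set to 0 FPKM and is called unlisted; 1 position damaged in 1 library came from another library.

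Log2 ratios were computed on FPKM + 1 in Python 3.11.15, with pandas 2.3.3. The cultivar effect was fitted with limma 3.58.1 in R 4.3.3 (additive cultivar and drought, variance trend, two-sided, Benjamini-Hochberg over 19743 genes, threshold 0.05) and tested on simulated data. With 1 residual degree of freedom and 1 library per group, p-values do not measure the spread between plants. The genes and lists were chosen with earlier results of these data known. Tags were named by rule, at most 2 at each end of each ranking, plus the pairs of adjacent genes; other tags are said to be named after seeing their values. Alternatives were TMM (written out from its definition), upper-quartile and common-total scaling, pseudocounts of 0.1 and 5, other filters on the mean, and no variance trend. Lists by description could not be applied. Figures used matplotlib 3.10.9.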

Additional observations from a re-analysis of the deposited data

Results flagged for a closer look

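In 2 of the 179 genes the cultivars differed by at least 2-fold in opposite directions under control and drought. Of the 18602 eligible genes 131 did so, or 0.704%. The count of 2 is too small to be read as a trait of the 179 genes, and the differences were not tested. MANES_05G012000 was higher in Xinxuan048 control and lower in Xinxuan048 drought than in KU50, and its log2 response differed by -3.41, Xinxuan048 minus KU50. Its KU50 control level was low, at 0.700 FPKM. MANES_02G212800 was lower in Xinxuan048 control and higher in Xinxuan048 drought, and its response differed by 2.56.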

How the results depend on the processing

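The number of genes that met the rule, 179 on FPKM as deposited, depended on scaling and pseudocount: it was 86 with TMM, 98 with upper-quartile scaling, 80 with a pseudocount of 5 and 340 with 0.1. The 86, 98 and 80 were all among the 179, and the 340 held all of them. No other outcome was possible, so this does not measure how stable the set is. TMM and upper-quartile scaling raised both control libraries and lowered both drought libraries, which lowers every ratio. A larger pseudocount lowers every positive ratio, and a smaller one raises it. In the fixed set of 179, the lowest ratio was 1.20 in KU50 and 1.10 in Xinxuan048 under TMM, and 0.59 and 0.65 with a pseudocount of 5. Their median ratio in KU50 was 1.84 with TMM, 1.89 with upper-quartile scaling, 2.38 with a pseudocount of 0.1 and 1.65 with 5; in Xinxuan048 it was 1.62, 1.72, 2.26 and 1.49 in that order. With a pseudocount of 0.1, 19 genes had a response at least 1 log2 unit greater in Xinxuan048 and 35 were at least 2-fold lower in Xinxuan048 control. A pseudocount of 5, which shrinks ratios of low values by construction, gave 3 for the former and 3 for the latter, with 4 at least 2-fold higher in Xinxuan048 control and 1 in Xinxuan048 drought. Without the limits on tag and span the rule took 195 genes, of which 5 were at least 2-fold higher in Xinxuan048 drought. The shares of eligible genes past these differences were not computed under such settings, so these counts have no background. The limma test of the cultivar effect gave 0 genes under each setting tried, with smallest adjusted p from 0.065 to 0.329 where the variance trend was kept. At an unadjusted p of 0.05, 46 to 52 of the 179 passed under other scalings and pseudocounts, with no filter on the mean or with no variance trend; it was 45 of the 160 genes taken at a mean of at least 5 FPKM and 58 of the 195. Of all genes, 3.82% to 7.09% passed this limit higher in Xinxuan048 and 6.50% to 10.8% higher in KU50, where the variance trend was kept. Nothing is read about the 179 genes from these counts. Where scaling moved a value, the cause was not tested. No paired analysis was possible because each group holds 1 library and the labels give no replicate number to block on beside cultivar and condition, and leaving out a library leaves no error to test with.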
